A study of Mus musculus with 20 samples.

Results

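Livers of mice labelled LXRα-/- on a chow diet were set against livers of wild-type (WT) mice on a high fat diet (HFD), which asks which transcripts tell loss of the receptor on chow from fat feeding of WT animals. The comparison took the 5 libraries with the LXRα-/- chow label and the 5 with the WT HFD label, 10 of the 20 libraries of the study, and 18905 of the 55385 listed genes had enough reads to be tested. The study crossed 2 genotypes with 2 diets and has 5 libraries each of LXRα-/- chow, WT HFD, LXRα-/- HFD and WT chow, all from whole liver at week 24 as polyA-selected RNA. The genotype field of the labels calls the first group an LXR knockdown while its titles read LXRα-/-, and neither the targeted exons, the strain, the sex, the age at the start nor the makeup of the HFD is given in the sources used here. Because the 2 groups differ in genotype label and in diet at once, a gene that differs between them cannot be assigned to either from these 10 libraries alone. Whether each library is 1 mouse or a pool is not stated, and a p-value here measures only how these libraries spread, which may be technical.

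LXRα, encoded by Nr1h3, is a nuclear receptor that pairs with RXR, is switched on by oxidised cholesterol and, in liver, drives genes of sterol disposal, lipoprotein handling and fatty acid synthesis, the last largely through the transcription factor SREBP-1c. It is also expressed in the resident macrophages of the liver, the Kupffer cells, where it maintains part of their gene programme. Fat feeding of a normal mouse changes several of the same pathways, since dietary fat and cholesterol feed the droplets, sterols and oxysterols that these regulators sense.

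Nr1h3 was not lower in the livers labelled LXRα-/- chow. It reached 46.6, 66.1, 58.9, 7.89 and 59.8 FPKM (fragments scaled by gene length and library size) in the livers labelled LXRα-/- chow, against 20.5, 18.7, 24.5, 14.3 and 17.5 FPKM in WT HFD livers. LXRα-/- chow library 4 was below all 5 WT HFD libraries and the other 4 were above them all. The means were 47.9 ± 23.4 and 19.1 ± 3.79 FPKM in the livers labelled LXRα-/- chow and in WT HFD livers (SD, n = 5 each), and the two-sided exact permutation p was 0.0476, where 5 against 5 libraries allow no p below 0.00794. Leaving out LXRα-/- chow library 4 gave a p of 0.0159, and leaving out any other library took it to between 0.0794 and 0.0952. In the edgeR fit Nr1h3 was not called (log2 fold change 1.26 ± 0.44 (SE), adjusted p = 0.098), but it was called without LXRα-/- chow library 4 (adjusted p = 0.02). Because the deleted part is not given, these reads may come from outside it, where they check nothing, and every direction below is that of the libraries as labelled. Nr1h2, which encodes the related receptor LXRβ, had 47.8 ± 15.4 CPM with the LXRα-/- chow label, against 43 ± 13.3 CPM in WT HFD livers. Nr1h4, the bile acid receptor FXR, was the only one of 16 lipid-sensing nuclear receptor genes past the threshold, at 155 ± 26.4 CPM with the LXRα-/- chow label, against 98.9 ± 21.8 CPM in WT HFD livers. Among all genes 2.12% were called higher. The Nr1h4 log2 fold change was 0.65 ± 0.17 (SE), adjusted p = 0.043, a call lost in 7 of the 10 fits that each left out 1 library, with adjusted p up to 0.12 without LXRα-/- chow library 1.

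Some properties of the libraries moved with the groups. The 10 libraries held 81413135 to 108889938 counts. Mitochondrially encoded genes took 18.2 to 29.6% of counts in the livers labelled LXRα-/- chow and 9.77 to 19.3% in WT HFD livers (means 22 ± 4.77 and 15.1 ± 4.09%, SD, exact permutation p = 0.0317, which rose to 0.0635 without LXRα-/- chow library 1, 2 or 5 or WT HFD library 1, 3 or 5). Pseudogenes took 8.36 to 14.1% and 5.02 to 8.22% of counts in the same 2 groups, with no overlap (exact permutation p = 0.00794, the smallest these libraries can give). Among the 10 libraries both shares were highest in LXRα-/- chow library 1 (29.59 and 14.11%) and lowest in WT HFD library 1 (9.772 and 5.017%). The pseudogene share may therefore not be a separate observation. The clock level, the mean log2 CPM of Arntl and Npas2 minus that of Dbp and Per3, ran from -5.65 to -1.38 with the LXRα-/- chow label and from -3.97 to 0.526 with the WT HFD label (exact permutation p = 0.0238), and the labels record no hour of collection. Hepatocyte markers were abundant in every library, and the 16 genes summed to 54700 to 127000 CPM in the livers labelled LXRα-/- chow and 122000 to 172000 CPM in WT HFD livers. The 7 adipocyte genes tested, checked because the extraction notes speak of an adipose type, summed to 1070 to 3020 CPM in the livers labelled LXRα-/- chow and 706 to 1260 CPM in WT HFD livers, with Adipoq at 0.0341 ± 0.0484 CPM with the LXRα-/- chow label, against 1.93 ± 4.15 CPM in WT HFD livers. Lep and Plin1 were too low to test. None of the 7 was called (median log2 fold change 0.039). Adipoq made up little of these sums, so they do not measure fat cell content. Eif2s3y, a Y-linked gene, averaged 15.4 ± 5.78 CPM with the LXRα-/- chow label, against 7.72 ± 2.84 CPM in WT HFD livers, and Xist 0.176 ± 0.125 CPM with the LXRα-/- chow label, against 0.0271 ± 0.0397 CPM in WT HFD livers.

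**Figure D1:**
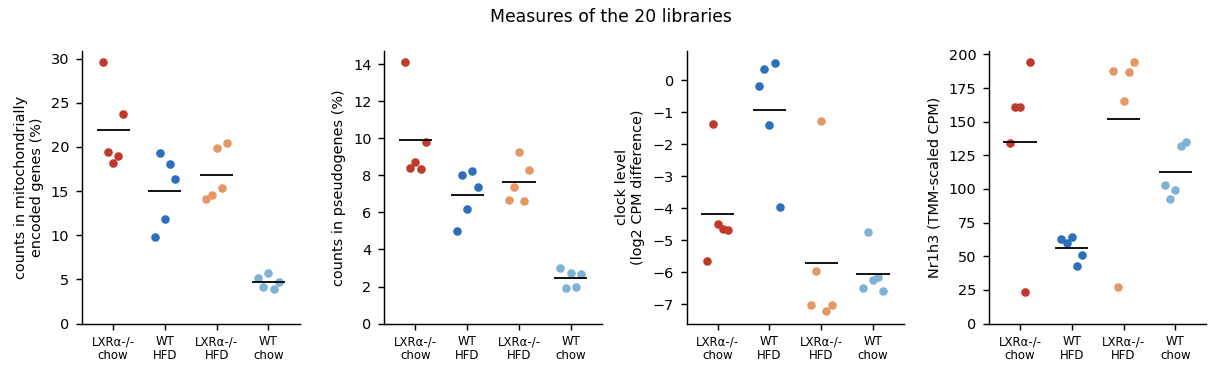
Share of counts in mitochondrially encoded genes and in pseudogenes (%), clock level (difference of mean log2 CPM) and Nr1h3 (TMM-scaled CPM) in each of the 20 libraries; points are libraries, bars are group means of 5. The livers labelled LXRα-/- chow have mitochondrial shares of 18.2 to 29.6% against 9.77 to 19.3% in WT HFD livers. Nr1h3 is low in 1 library of that label and in 1 LXRα-/- HFD library.

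Of the 18905 genes, 703 (3.72%) were called at an adjusted p under 0.05 by edgeR's quasi-likelihood test with Benjamini-Hochberg adjustment. In the livers labelled LXRα-/- chow 400 genes were higher (2.12% of those tested) and 303 were lower (1.6%), relative to WT HFD livers. Among the called genes 309 were at least 2-fold higher and 157 at least 2-fold lower, and the median log2 fold change over all tested genes was 0.0425. For 1345 genes (7.11%) the 5 values of one group lay wholly outside those of the other. The count rested on single libraries: it was 171 without LXRα-/- chow library 1, 198 without LXRα-/- chow library 2, 1402 without LXRα-/- chow library 4, 163 without WT HFD library 1, 359 without WT HFD library 2 and 271 without WT HFD library 3. Called in every one of the 10 leave-one-out fits were 123 genes, 77 higher and 46 lower, and a call that did not hold in every such fit is given with the fits that lost it. Adding the mitochondrial share to the fit left 31 calls, of which 28 belonged to the 703. Because that share moved with the groups, this fit separates it from the labels only in part. A call lost there does not show that the share accounts for the difference. With LXRα-/- chow libraries 1 and 5 left out together, which leaves fewer libraries to test with, 61 were called. Genes with a protein-coding transcript made up 82.5% of the higher and 88.8% of the lower genes, against 76.0% of all tested, and lncRNA or unconfirmed loci 12.5% of the higher and 2.6% of the lower genes, against 12.3% of all tested. Pseudogenes made up 2.2% of the higher and 6.3% of the lower genes, against 10.1% of all tested.

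**Figure D2:**
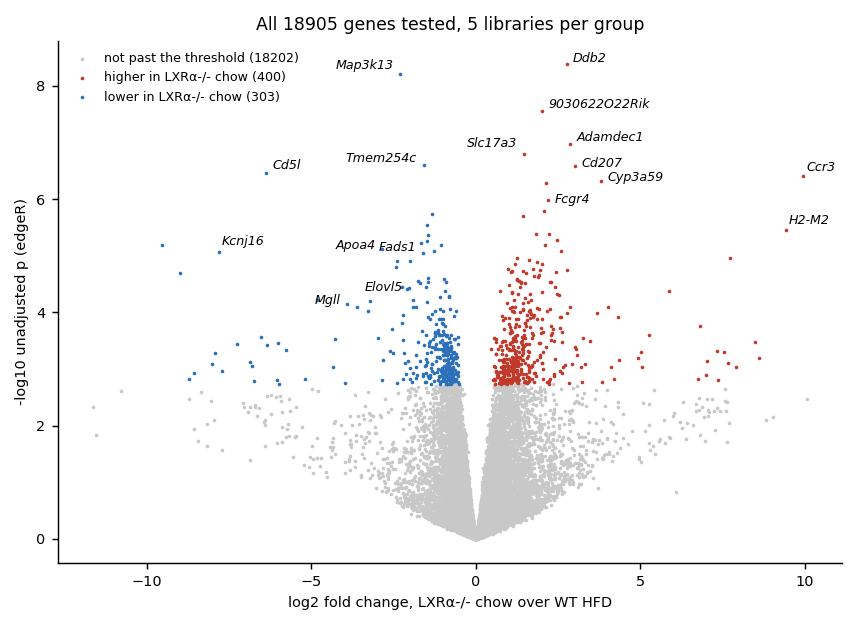
Log2 fold change of LXRα-/- chow over WT HFD (x axis) and -log10 of the unadjusted edgeR p (y axis) for 18905 genes; red points are the 400 genes called higher, blue points the 303 called lower and grey points the rest. Ddb2 and Map3k13 reach the highest points on either side, and Cd5l, Ccr3, H2-M2 and Kcnj16 lie far from 0.

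Cd5l, a secreted scavenger protein of tissue macrophages and a known LXR target in mouse, showed the deepest fall among the genes described here that had counts in both groups. Its levels (counts scaled to library size by TMM factors, given as CPM in what follows) were 1.15, 0.0635, 0, 0.194 and 0.18 CPM in the livers labelled LXRα-/- chow, against 26.5, 21.6, 20.4, 27.6 and 32.3 CPM in WT HFD livers. The groups were far apart, and LXRα-/- chow library 3 had 0 Cd5l counts (log2 fold change -6.38 ± 0.86 (SE), adjusted p = 0.00084). The remaining groups split the same way, with 0.181 ± 0.122 CPM in LXRα-/- HFD livers, against 78.5 ± 24 CPM in WT chow livers (SD, n = 5 each). Ddb2, the subunit of a complex that recognises ultraviolet damage in DNA, rose to 36.4, 26.4, 25, 14.3 and 17.5 CPM in the livers labelled LXRα-/- chow, against 2, 2.16, 4.95, 4.47 and 4.05 CPM in WT HFD livers. The Ddb2 log2 fold change was 2.76 ± 0.28 (SE), adjusted p = 6.0e-05. Every LXRα-/- chow library exceeded every WT HFD library, and the means were 23.3 ± 2.76 CPM in LXRα-/- HFD livers, against 2.45 ± 0.457 CPM in WT chow livers. Ddb2 lies at chr2:91211572-91236960 and Nr1h3 at chr2:91184061-91202834 in the coordinates of the deposited table, which match GRCm38. Acp2, a lysosomal acid phosphatase at chr2:91202885-91214098, lies between them, begins next to Nr1h3 and overlaps Ddb2. It also rose, at 53.1 ± 18 CPM with the LXRα-/- chow label, against 26.5 ± 6.41 CPM in WT HFD livers (SD). The Acp2 log2 fold change was 1.0 ± 0.19 (SE), adjusted p = 0.0093. Reads in the shared stretch of Acp2 and Ddb2 could fall to either gene. Among the 62 tested genes within 5 Mb of Nr1h3, 2 rose and 1 fell, or 4.8%, against the 3.72% called among all genes.

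Map3k13, a kinase upstream of JNK signalling, fell to 1.94, 1.69, 1.96, 3.83 and 3.16 CPM in the livers labelled LXRα-/- chow, against 14.3, 11.3, 15.6, 11.1 and 9.57 CPM in WT HFD livers. The Map3k13 log2 fold change was -2.30 ± 0.24 (SE), adjusted p = 6.0e-05. Every LXRα-/- chow value was below every WT HFD value. The means of 7.97 ± 1.3 CPM in LXRα-/- HFD livers, against 9.36 ± 1.95 CPM in WT chow livers, lay between them. Slc17a3, a transporter of urate and organic anions, rose, with 105, 120, 84.8, 72.3 and 71 CPM with the LXRα-/- chow label and 26.9, 33.2, 37.1, 41.6 and 26.5 CPM with the WT HFD label. The Slc17a3 log2 fold change was 1.46 ± 0.19 (SE), adjusted p = 0.0006. Its means of 75 ± 16 CPM in LXRα-/- HFD livers, against 39 ± 4.4 CPM in WT chow livers, lay on the side of their own genotype label. Adamdec1, a secreted metalloprotease of macrophages and dendritic cells, rose to 5.22, 5.79, 3.96, 2.12 and 4.39 CPM in the livers labelled LXRα-/- chow, against 0.622, 0.708, 0.329, 0.589 and 0.717 CPM in WT HFD livers. The Adamdec1 log2 fold change was 2.85 ± 0.35 (SE), adjusted p = 0.0005. Tmem254c fell to 59.6 ± 16.8 CPM with the LXRα-/- chow label, against 179 ± 37.2 CPM in WT HFD livers (SD). The Tmem254c log2 fold change was -1.58 ± 0.21 (SE), adjusted p = 0.0007. Tmem254a and Tmem254b are near-identical copies, so its reads may be split among them. The long non-coding RNA 9030622O22Rik rose to 34.6 ± 16.7 CPM with the LXRα-/- chow label, against 8.54 ± 1.16 CPM in WT HFD livers (SD). The 9030622O22Rik log2 fold change was 2.02 ± 0.23 (SE), adjusted p = 0.00018. Gm12909, another non-coding RNA, rose to 62.5 ± 26.7 CPM with the LXRα-/- chow label, against 11.3 ± 5.9 CPM in WT HFD livers (log2 fold change 2.47, adjusted p = 0.011). Obp2a, a lipocalin, was among the largest rises at 20.8, 48.4, 9.79, 239 and 81.1 CPM in the livers labelled LXRα-/- chow, against 5.13, 8.97, 3.11, 1.22 and 1.65 CPM in WT HFD livers, with a wide spread in the first group (log2 fold change 4.31 ± 0.91 (SE), adjusted p = 0.017). The groups did not overlap. Chrna4, a nicotinic receptor subunit, was among the largest falls at 3.13 ± 2.89 CPM with the LXRα-/- chow label, against 30.6 ± 12.8 CPM in WT HFD livers. The Chrna4 log2 fold change was -3.29 ± 0.68 (SE), adjusted p = 0.015. Of the genes above Cd5l, Ddb2, Acp2, Map3k13, Slc17a3, Adamdec1, Tmem254c and 9030622O22Rik were still called with the mitochondrial share as a covariate.

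**Figure D3:**
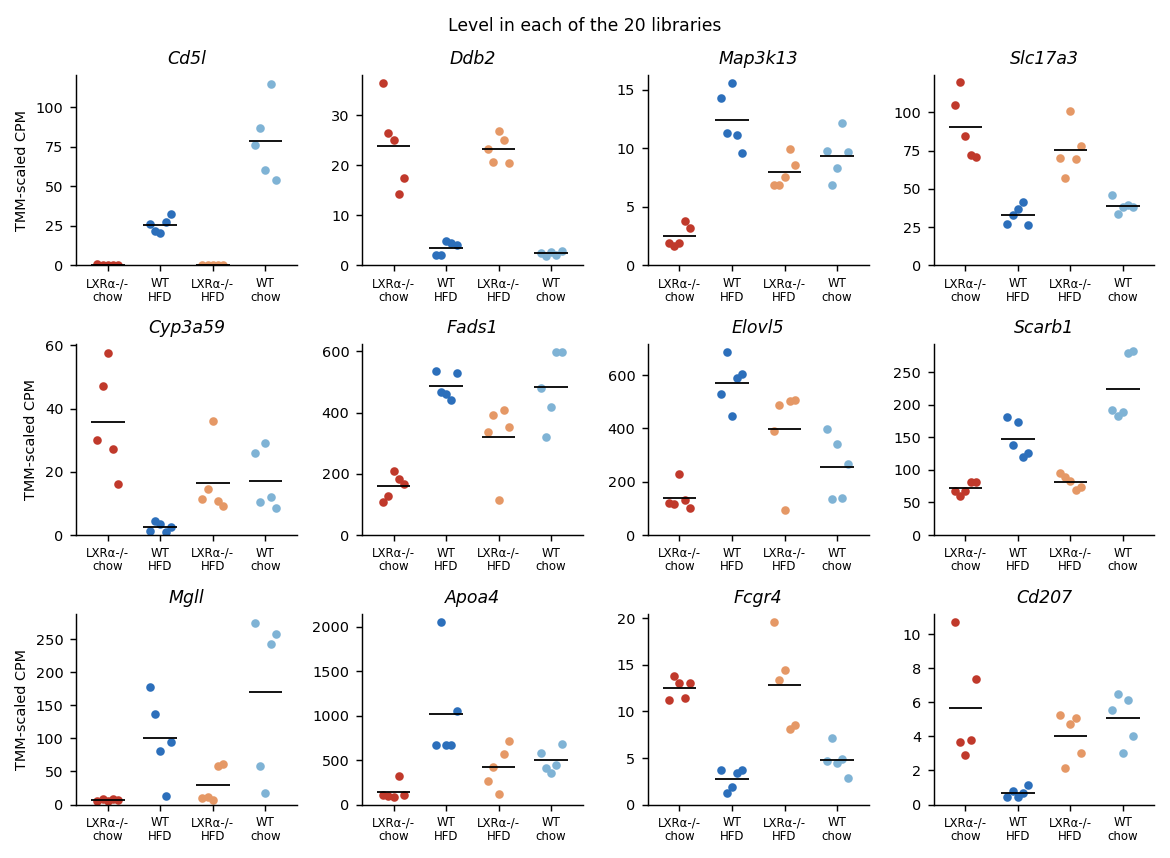
Level in TMM-scaled CPM (y axis, from 0) of 12 genes in the 20 libraries, by group; points are libraries and bars group means of 5. In each panel the livers labelled LXRα-/- chow and WT HFD livers do not overlap, while the LXRα-/- HFD and WT chow groups stand beside their genotype for Cd5l and Ddb2 and between the 2 groups for Map3k13.

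Some fatty acid synthesis genes fell with the LXRα-/- chow label, and the members that held their calls in every leave-one-out fit were those of the polyunsaturated branch. Of 21 genes 6 fell (1.6% of all genes did) and none rose, with a list median log2 fold change of -1.17 against 0.042 over all genes, and 19 of 21 had negative fold changes. Fads1 and Fads2 are the desaturases, and Elovl2 and Elovl5 the elongases, that turn essential fatty acids into arachidonic and docosahexaenoic acid. Fads1 fell to 109, 129, 210, 182 and 165 CPM in the livers labelled LXRα-/- chow, against 537, 466, 462, 440 and 530 CPM in WT HFD livers. The Fads1 log2 fold change was -1.61 ± 0.27 (SE), adjusted p = 0.0056. Fads2 fell to 166, 125, 210, 245 and 155 CPM in the livers labelled LXRα-/- chow, against 951, 776, 669, 619 and 818 CPM in WT HFD livers. The Fads2 log2 fold change was -2.09 ± 0.40 (SE), adjusted p = 0.01. In both desaturases the groups did not overlap. Elovl5 fell to 121, 117, 230, 133 and 101 CPM in the livers labelled LXRα-/- chow, against 528, 687, 446, 589 and 605 CPM in WT HFD livers. The Elovl5 log2 fold change was -2.02 ± 0.38 (SE), adjusted p = 0.0096. Elovl2 fell to 117 ± 27.5 CPM with the LXRα-/- chow label, against 322 ± 27.8 CPM in WT HFD livers (SD, n = 5 each; log2 fold change -1.46 ± 0.27 (SE), adjusted p = 0.0086). In the remaining groups Fads1 had 320 ± 119 CPM in LXRα-/- HFD livers, against 483 ± 120 CPM in WT chow livers, and Elovl5 396 ± 176 CPM in LXRα-/- HFD livers, against 256 ± 118 CPM in WT chow livers. The other 2 members past the threshold were Elovl3 (lost in 7 of the 10 fits, adjusted p up to 0.11 without WT HFD library 1), an elongase of saturated and monounsaturated chains, and Pnpla3 (lost in 6 of the 10 fits, adjusted p up to 0.072 without LXRα-/- chow library 1), a lipase of lipid droplets, at 0.031 ± 0.0294 CPM with the LXRα-/- chow label, against 1.79 ± 1.55 CPM in WT HFD livers.

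Several enzymes and regulators of saturated and monounsaturated fat synthesis other than Elovl3 did not pass the test. Fasn, fatty acid synthase, had 352, 190, 273, 770 and 156 CPM in the livers labelled LXRα-/- chow, against 821, 989, 909, 771 and 489 CPM in WT HFD livers. The Fasn log2 fold change was -1.19 ± 0.50 (SE), adjusted p = 0.17. The groups overlapped, with LXRα-/- chow library 4 beside the WT HFD libraries, and Fasn was called without that library (adjusted p = 0.045). Scd1, the stearoyl-CoA desaturase and a classic LXR and SREBP-1c target, had 2600 ± 1710 CPM with the LXRα-/- chow label, against 6030 ± 1930 CPM in WT HFD livers (log2 fold change -1.21, adjusted p = 0.19). Srebf1, which encodes SREBP-1, had 220 ± 61.1 CPM with the LXRα-/- chow label, against 286 ± 64.6 CPM in WT HFD livers (log2 fold change -0.37, adjusted p = 0.57), and Acaca, acetyl-CoA carboxylase, 59.9 ± 12.5 CPM with the LXRα-/- chow label, against 78.6 ± 9.8 CPM in WT HFD livers (log2 fold change -0.39, adjusted p = 0.36). None of the 21 genes was called with the mitochondrial share as a covariate, or without LXRα-/- chow libraries 1 and 5, or among the 6 libraries closest in mitochondrial share. Under that covariate Fads1, Fads2, Elovl2 and Elovl5 had log2 fold changes of -1.31, -1.84, -1.36 and -2.08. Elovl3 and Pnpla3 had -1.56 and -6.5. The part of the mitochondrial share in these falls was otherwise not tested.

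Some cholesterol synthesis genes fell in the same livers. Of 25 genes 5 fell (1.6% of all genes did), none rose and 20 did not pass the test. Negative fold changes were fitted for 24 of them, with a median log2 fold change of -0.84, and 11 had groups that did not overlap (7.11% of all genes). Pmvk, phosphomevalonate kinase, fell to 11.1, 7.45, 6.74, 15.2 and 10.1 CPM in the livers labelled LXRα-/- chow, against 40.2, 24.6, 24.2, 22.1 and 28 CPM in WT HFD livers. The Pmvk log2 fold change was -1.46 ± 0.27 (SE), adjusted p = 0.0087. Dhcr7, which catalyses the last reduction to cholesterol, fell to 10.8, 4.74, 5.97, 12.5 and 6.14 CPM in the livers labelled LXRα-/- chow, against 184, 134, 21.2, 14.6 and 15.7 CPM in WT HFD livers. The Dhcr7 log2 fold change was -3.21 ± 0.63 (SE), adjusted p = 0.013. Its WT HFD values spread widely but all lay above the LXRα-/- chow values. Members past the threshold also included Sc5d (lost in 9 of the 10 fits, adjusted p up to 0.12 without LXRα-/- chow library 1) and Tm7sf2 (lost in 7 of the 10 fits, adjusted p up to 0.13 without LXRα-/- chow library 1), late enzymes of the route. Sqle, squalene epoxidase, had 12.8 ± 6.87 CPM with the LXRα-/- chow label, against 25.9 ± 7.78 CPM in WT HFD livers (log2 fold change -1.01, adjusted p = 0.22). The number of members called was 0 with the mitochondrial share as a covariate, 0 without LXRα-/- chow libraries 1 and 5, and 11 with DESeq2.

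Promoters of called members of these lists are shown because the CCAAT box, a binding element of the factor NF-Y that works beside SREBP at many sterol genes, was frequent before the sterol genes. CCAAT, on either strand in the 250 bases before the start, was present for 16 of the 17 cholesterol synthesis genes with an entry in the RefSeq promoter table (94.1%, of 25 listed) and for 11 of 17 fatty acid synthesis genes (64.7%, of 21 listed). It was present in 33.8% of all 32851 promoters and, by gene, for 39.9% of the 12254 tested genes with an entry, 46.1% of the 228 called lower and 32.5% of the 292 called higher. The sterol element TCACNCCAC, on either strand, was present in 1.05% of all promoters and for 1 of 17 genes of each list. These matches describe the letters and show no binding. The 5 promoters below run 5′ to 3′ up to the base before the start site, with CCAAT or its complement ATTGG in capitals, in GRCm38.p6 at chr9:77917115-77917364 (plus strand), chr15:84167566-84167815 (plus strand), chr3:89454291-89454540 (plus strand), chr9:42264301-42264550 (minus strand) and chr19:6067851-6068100 (minus strand).
Elovl5: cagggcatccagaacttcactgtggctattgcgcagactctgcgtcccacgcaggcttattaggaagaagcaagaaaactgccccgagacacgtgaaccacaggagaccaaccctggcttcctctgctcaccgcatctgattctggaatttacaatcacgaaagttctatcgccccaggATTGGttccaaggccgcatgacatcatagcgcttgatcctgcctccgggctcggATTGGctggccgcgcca
Pnpla3: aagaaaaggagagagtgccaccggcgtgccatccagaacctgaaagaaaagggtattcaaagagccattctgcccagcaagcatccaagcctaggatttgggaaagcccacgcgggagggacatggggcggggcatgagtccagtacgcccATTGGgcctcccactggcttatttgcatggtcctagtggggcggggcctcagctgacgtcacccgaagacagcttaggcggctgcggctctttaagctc
Pmvk: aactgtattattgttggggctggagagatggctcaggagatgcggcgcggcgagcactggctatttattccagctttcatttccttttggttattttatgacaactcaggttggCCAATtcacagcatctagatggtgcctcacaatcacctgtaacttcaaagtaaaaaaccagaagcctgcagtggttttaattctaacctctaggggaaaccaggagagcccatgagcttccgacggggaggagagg
Sc5d: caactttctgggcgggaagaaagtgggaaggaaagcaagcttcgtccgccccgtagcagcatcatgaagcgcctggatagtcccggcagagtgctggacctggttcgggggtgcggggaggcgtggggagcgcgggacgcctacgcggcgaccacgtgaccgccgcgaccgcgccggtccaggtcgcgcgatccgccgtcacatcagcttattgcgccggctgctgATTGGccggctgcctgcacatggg
Tm7sf2: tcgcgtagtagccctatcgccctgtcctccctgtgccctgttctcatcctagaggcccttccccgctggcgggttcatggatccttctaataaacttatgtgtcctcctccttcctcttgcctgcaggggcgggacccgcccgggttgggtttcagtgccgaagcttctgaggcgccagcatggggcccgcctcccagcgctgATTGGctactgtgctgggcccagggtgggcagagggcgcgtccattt
Only promoters that held a match were printed, so the presence of one in each is no result. Elovl5 held 2 matches and the other 4 promoters 1 each. Pmvk has another promoter in the table with no match. Among the other called members of the lists, Elovl2 and Fads2 held no match, Dhcr7 held one in the last of its listed promoters only, and Fads1 and Elovl3 had no entry.

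Some genes of lipid droplets and fat use fell as well. Among 23 lipid droplet and triglyceride genes 6 fell (1.6% of all genes did), none rose and 17 did not pass the test (median log2 fold change -0.65). Of the 6, Mgll alone held its call in all 10 leave-one-out fits. Mgll, the lipase that finishes triglyceride breakdown, fell to 5.27, 7.88, 5.2, 8.82 and 6.18 CPM in the livers labelled LXRα-/- chow, against 177, 137, 80.9, 12.8 and 93.8 CPM in WT HFD livers. The Mgll log2 fold change was -3.91 ± 0.78 (SE), adjusted p = 0.014. WT HFD library 4, the lowest of its group, still lay above the whole LXRα-/- chow group. Plin2, the main droplet coat protein of hepatocytes, fell to 113 ± 28 CPM with the LXRα-/- chow label, against 283 ± 71.9 CPM in WT HFD livers (SD). The Plin2 log2 fold change was -1.33 ± 0.28 (SE), adjusted p = 0.016, a call lost without LXRα-/- chow library 1 or WT HFD library 1 (adjusted p up to 0.051). The other members past the threshold were Plin5 (lost in 3 of the 10 fits, adjusted p up to 0.078 without WT HFD library 1), Hilpda (lost in 3 of the 10 fits, adjusted p up to 0.067 without LXRα-/- chow library 1), Abhd5 (lost in 7 of the 10 fits, adjusted p up to 0.11 without WT HFD library 1) and Plin3 (lost in 8 of the 10 fits, adjusted p up to 0.13 without WT HFD library 1). Cidec, a droplet fusion protein, had 4.47 ± 3.33 CPM with the LXRα-/- chow label, against 17.4 ± 18 CPM in WT HFD livers (log2 fold change -1.96, adjusted p = 0.17). Among 23 genes of fatty acid oxidation and PPARα targets 4 fell, none rose and 19 did not pass the test (median -0.60). The 4 were Fgf21 (lost in 6 of the 10 fits, adjusted p up to 0.069 without WT HFD library 2), a fasting hormone, Bdh1 (lost in 6 of the 10 fits, adjusted p up to 0.092 without WT HFD library 1), a ketone body enzyme, Ehhadh (lost in 7 of the 10 fits, adjusted p up to 0.13 without WT HFD library 1), of peroxisomal oxidation, and Pdk4 (lost in 9 of the 10 fits, adjusted p up to 0.11 without LXRα-/- chow library 1), the brake on pyruvate oxidation. Fabp2, a fatty acid carrier best known from gut, fell to 11.8, 14.8, 25.7, 20.8 and 7.56 CPM in the livers labelled LXRα-/- chow, against 73.7, 84.7, 75.2, 68.1 and 75.8 CPM in WT HFD livers. The Fabp2 log2 fold change was -2.23 ± 0.46 (SE), adjusted p = 0.016. That call was lost only without LXRα-/- chow library 1 (adjusted p = 0.053), among the 10 leave-one-out fits. None of the members of either list was called with the mitochondrial share as a covariate or without LXRα-/- chow libraries 1 and 5. Under that covariate Mgll, Plin2, Plin5, Hilpda, Abhd5 and Plin3 had log2 fold changes of -3.63, -1.09, -0.68, -1.27, -0.45 and -0.5.

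Of 24 lipoprotein genes 4 fell (1.6% of all genes did) and none rose (median log2 fold change -0.43). Apoa4, an apolipoprotein of triglyceride-rich particles and HDL, fell to 103, 91.8, 86, 318 and 111 CPM in the livers labelled LXRα-/- chow, against 667, 2050, 673, 665 and 1050 CPM in WT HFD livers. The Apoa4 log2 fold change was -2.85 ± 0.48 (SE), adjusted p = 0.0054, and the gene stayed called with the mitochondrial share as a covariate. LXRα-/- chow library 4 held the highest value of its group and still lay below the WT HFD libraries. Scarb1, the HDL receptor, fell to 66.9, 59.7, 68, 81.4 and 82 CPM in the livers labelled LXRα-/- chow, against 181, 138, 173, 119 and 126 CPM in WT HFD livers. The Scarb1 log2 fold change was -1.04 ± 0.17 (SE), adjusted p = 0.0048. Its means of 82 ± 11 CPM in LXRα-/- HFD livers, against 225 ± 51.2 CPM in WT chow livers, lay beside those of the same genotype label. The others were Mttp (lost in 6 of the 10 fits, adjusted p up to 0.09 without WT HFD library 1), which loads lipid onto apolipoprotein B, and Pltp (lost in 9 of the 10 fits, adjusted p up to 0.12 without LXRα-/- chow library 2), phospholipid transfer protein. Apoa1, the main HDL protein, had 20800 ± 4850 CPM with the LXRα-/- chow label, against 37100 ± 3810 CPM in WT HFD livers with groups that did not overlap (log2 fold change -0.84, adjusted p = 0.058). Of the 24 genes 1 was called with the mitochondrial share as a covariate and 1 without LXRα-/- chow libraries 1 and 5.

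The list of LXR targets, which leaves out Cd5l (counted among Kupffer cell genes), had 20 tested members, of which Pltp passed the threshold, at 75.1 ± 51.9 CPM with the LXRα-/- chow label, against 288 ± 182 CPM in WT HFD livers. The Pltp log2 fold change was -1.94 ± 0.53 (SE), adjusted p = 0.048, and the list median was -0.38. Among all genes 1.6% were called lower. Abca1, the cholesterol efflux pump, had 58.7, 59.4, 59.1, 47.3 and 49 CPM in the livers labelled LXRα-/- chow, against 30.7, 30.2, 40.8, 25 and 22.5 CPM in WT HFD livers, with the LXRα-/- chow libraries all above those of WT HFD (log2 fold change 0.87 ± 0.26 (SE), adjusted p = 0.061). It was called without LXRα-/- chow library 4, at an adjusted p of 0.047. Cyp7a1, which starts the classic route of bile acid synthesis and is an LXR target in mouse, had 4.82 ± 2.6 CPM with the LXRα-/- chow label, against 14.5 ± 6.91 CPM in WT HFD livers (log2 fold change -1.59, adjusted p = 0.15). Lpcat3, which builds polyunsaturated phospholipids, had 32.7 ± 4.55 CPM with the LXRα-/- chow label, against 49.4 ± 16.8 CPM in WT HFD livers (log2 fold change -0.60, adjusted p = 0.21), and Cd36, a fatty acid uptake receptor, 2.39 ± 1.67 CPM with the LXRα-/- chow label, against 3.75 ± 1.59 CPM in WT HFD livers (log2 fold change -0.64, adjusted p = 0.45). A p that misses the threshold does not show equal levels.

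Bile acid and drug handling genes were mixed, where 2.12% of all genes were called higher and 1.6% lower. Of 22 bile acid genes Cyp2c70 fell and Slco1a4 rose. Cyp2c70, the mouse enzyme that makes muricholic acids, fell to 71.5, 35.2, 42.9, 58.9 and 52.5 CPM in the livers labelled LXRα-/- chow, against 277, 87.7, 202, 135 and 119 CPM in WT HFD livers. The Cyp2c70 log2 fold change was -1.65 ± 0.27 (SE), adjusted p = 0.0048. Its means in the remaining groups were 37.5 ± 11.1 CPM in LXRα-/- HFD livers, against 715 ± 47.4 CPM in WT chow livers. Slco1a4, an uptake transporter of bile salts and drugs, rose to 51.8 ± 40 CPM with the LXRα-/- chow label, against 12.8 ± 5.98 CPM in WT HFD livers. The Slco1a4 log2 fold change was 2.02 ± 0.43 (SE), adjusted p = 0.017, a call lost only without WT HFD library 1 (adjusted p = 0.053) among the 10 leave-one-out fits. Of 24 drug and steroid metabolism genes 2 rose and none fell, both of the CYP3A family of monooxygenases that oxidise drugs, steroids and bile acids. Cyp3a59 rose to 30, 47.3, 57.6, 27.3 and 16.2 CPM in the livers labelled LXRα-/- chow, against 1.35, 4.35, 3.61, 1.05 and 2.42 CPM in WT HFD livers. The Cyp3a59 log2 fold change was 3.80 ± 0.52 (SE), adjusted p = 0.00089. The lowest LXRα-/- chow value exceeded the highest WT HFD value. In the remaining groups Cyp3a59 had 16.4 ± 11.2 CPM in LXRα-/- HFD livers, against 17.2 ± 9.57 CPM in WT chow livers, and was not called (log2 fold change -0.07 ± 0.46 (SE), adjusted p = 0.92). Cyp3a11, at 1190 ± 791 CPM with the LXRα-/- chow label, against 302 ± 89.7 CPM in WT HFD livers, rose by 1.98 ± 0.44 (SE) on the log2 scale (adjusted p = 0.023), a call lost without LXRα-/- chow library 2 or WT HFD library 3 (adjusted p up to 0.058). The CYP3A genes are similar in sequence, so reads may be shared among them. Cyp17a1, a steroid hydroxylase and the only one of 9 female-biased liver genes past the threshold, fell to 3.73 ± 2.15 CPM with the LXRα-/- chow label, against 29.4 ± 19 CPM in WT HFD livers. The Cyp17a1 log2 fold change was -2.98 ± 0.68 (SE), adjusted p = 0.025, and the call was lost without LXRα-/- chow library 1 or 2 (adjusted p up to 0.072). With the mitochondrial share as a covariate Cyp3a59 kept its call (adjusted p = 0.028). Cyp2c70 (0.25), Slco1a4 (0.16), Cyp3a11 (0.16) and Cyp17a1 (0.29) lost theirs.

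**Figure D4:**
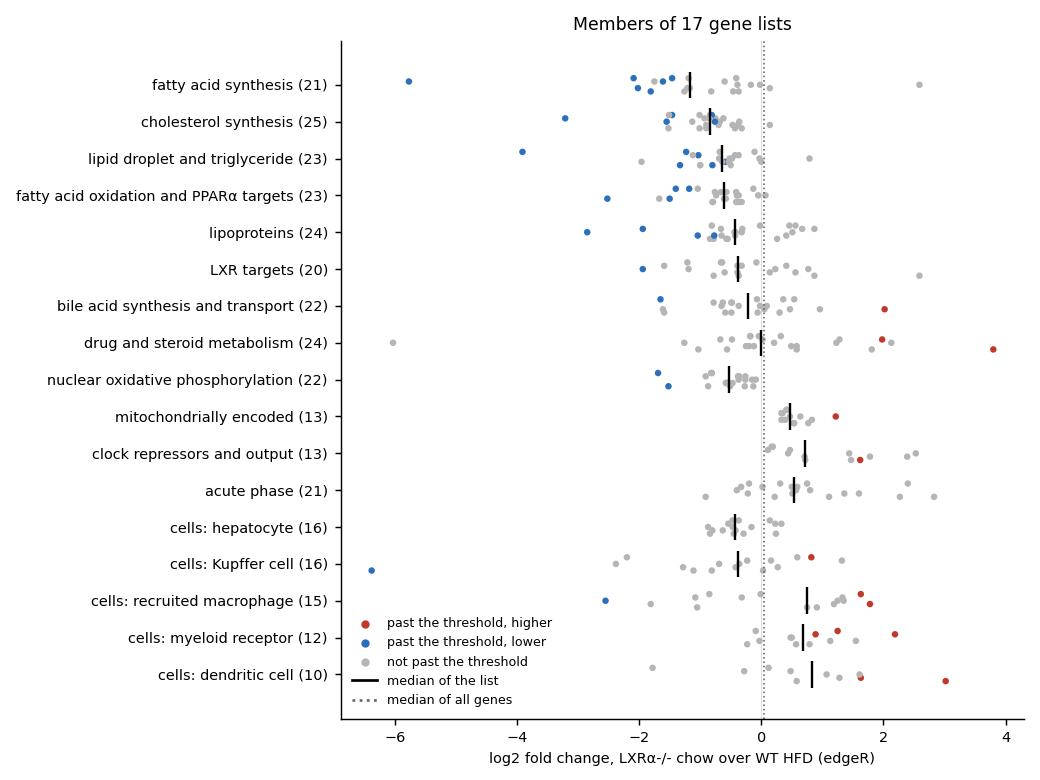
Log2 fold change of LXRα-/- chow over WT HFD (x axis) for the tested members of 17 gene lists, with the number tested in brackets; red and blue points passed the threshold, grey points did not, black bars are list medians and the dotted line is the median of all genes. Medians of the fat and sterol lists lie left of 0, down to -1.17 for fatty acid synthesis, and most called points there are blue.

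Myeloid genes moved in both directions. Of 16 Kupffer cell genes Cd5l fell and Slc40a1 rose (median log2 fold change -0.39). Slc40a1, the iron exporter ferroportin, lost its call in 7 of the 10 fits (adjusted p up to 0.12 without LXRα-/- chow library 1). The list summed to 199 to 377 CPM in the livers labelled LXRα-/- chow and 287 to 412 CPM in WT HFD livers. Clec4f, a lectin restricted to Kupffer cells in mouse, had 31.1 ± 22.3 CPM with the LXRα-/- chow label, against 41.7 ± 3.94 CPM in WT HFD livers (log2 fold change -0.42, adjusted p = 0.52), and Timd4, a receptor of long-lived Kupffer cells, 0.416 ± 0.207 CPM with the LXRα-/- chow label, against 2.16 ± 0.661 CPM in WT HFD livers (log2 fold change -2.38, adjusted p = 0.058). In whole liver, fewer cells of a type and less RNA per cell cannot be told apart. Of 12 myeloid receptor genes 3 rose (2.12% of all genes did) and none fell (median 0.68). Fcgr4, an activating receptor for IgG, rose to 11.2, 13.8, 13.1, 11.5 and 13.1 CPM in the livers labelled LXRα-/- chow, against 3.7, 1.19, 1.84, 3.35 and 3.7 CPM in WT HFD livers. The Fcgr4 log2 fold change was 2.19 ± 0.32 (SE), adjusted p = 0.0017. The groups were separated by more than their ranges, and Fcgr4 stayed called with the mitochondrial share as a covariate. Fcer1g, the signalling chain that Fcgr4 needs, rose to 36.2, 28.2, 24.3, 19.5 and 32.8 CPM in the livers labelled LXRα-/- chow, against 13, 13, 10.2, 8.87 and 14.1 CPM in WT HFD livers. The Fcer1g log2 fold change was 1.25 ± 0.21 (SE), adjusted p = 0.0063, and the call was lost with the mitochondrial share as a covariate (adjusted p = 0.11). The third was Tyrobp (lost in 7 of the 10 fits, adjusted p up to 0.14 without LXRα-/- chow library 1), the adaptor DAP12, with an adjusted p of 0.68 under that covariate. The whole list summed to 119 to 222 CPM in the livers labelled LXRα-/- chow and 85.6 to 136 CPM in WT HFD livers, and 1 of its genes was called without LXRα-/- chow libraries 1 and 5. The hepatocyte sum was lower in the same livers, and its part in these rises was not tested.

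Further receptor and signalling genes of myeloid cells were higher. This set was chosen after its values were seen, so it is a description. It held Pilra at 9 ± 3.67 CPM with the LXRα-/- chow label, against 2.51 ± 0.589 CPM in WT HFD livers (log2 fold change 1.84), Pilrb1 at 5.22 ± 2.37 CPM with the LXRα-/- chow label, against 1.21 ± 0.359 CPM in WT HFD livers (log2 fold change 2.10) and Pilrb2 at 3.45 ± 1.62 CPM with the LXRα-/- chow label, against 0.953 ± 0.166 CPM in WT HFD livers (log2 fold change 1.86), a set of paired inhibitory and activating receptors. Cd300lf, a lipid-binding inhibitory receptor, had 3.51 ± 1.58 CPM with the LXRα-/- chow label, against 0.754 ± 0.273 CPM in WT HFD livers (log2 fold change 2.22), and Cd300e, an activating relative, 2.58 ± 0.695 CPM with the LXRα-/- chow label, against 0.426 ± 0.203 CPM in WT HFD livers (log2 fold change 2.60). Siglece, a sialic acid receptor, had 9.57 ± 2.36 CPM with the LXRα-/- chow label, against 3.84 ± 0.871 CPM in WT HFD livers (log2 fold change 1.32). Clec4a1, a myeloid lectin, had 4.82 ± 0.607 CPM with the LXRα-/- chow label, against 1.66 ± 0.618 CPM in WT HFD livers (log2 fold change 1.53). Sirpb1a had 1.45 ± 0.734 CPM with the LXRα-/- chow label, against 0.0881 ± 0.0592 CPM in WT HFD livers (log2 fold change 4.03), and Syk, the kinase that docks on Fcer1g and Tyrobp, 14.4 ± 5.03 CPM with the LXRα-/- chow label, against 5.57 ± 1.42 CPM in WT HFD livers (log2 fold change 1.37). Lilr4b and Lilrb4a, close copies between which reads may be shared, had log2 fold changes of 1.92 and 2.16. All 11 were past the threshold and their groups did not overlap. In leave-one-out fits only Lilrb4a lost its call, without LXRα-/- chow library 1 (adjusted p = 0.051). With the mitochondrial share as a covariate Cd300e (adjusted p = 0.039) and Clec4a1 (adjusted p = 0.049) kept their calls, and the other 9 lost theirs, with adjusted p of 0.11 to 0.47.

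Markers of other myeloid states included further calls. Of 15 recruited macrophage genes 2 rose and 1 fell, where 2.12% of all genes rose and 1.6% fell. Itgax, which encodes CD11c, rose to 4.84 ± 2.59 CPM with the LXRα-/- chow label, against 1.41 ± 0.461 CPM in WT HFD livers. The Itgax log2 fold change was 1.78 ± 0.37 (SE), adjusted p = 0.016, a call lost without LXRα-/- chow library 1 or WT HFD library 1 (adjusted p up to 0.054). The others were Cx3cr1 (lost in 5 of the 10 fits, adjusted p up to 0.083 without WT HFD library 1), the fractalkine receptor, which was higher, and Fabp5 (lost in 4 of the 10 fits, adjusted p up to 0.066 without WT HFD library 1), a fatty acid carrier, which was lower. Of 10 dendritic cell genes 2 rose (median 0.82). Cd207, the lectin langerin, rose to 10.7, 3.68, 2.92, 3.8 and 7.38 CPM in the livers labelled LXRα-/- chow, against 0.421, 0.792, 0.471, 0.689 and 1.13 CPM in WT HFD livers. The Cd207 log2 fold change was 3.02 ± 0.40 (SE), adjusted p = 0.0007. The groups did not overlap, and the means in the remaining groups were 4.05 ± 1.4 CPM in LXRα-/- HFD livers, against 5.06 ± 1.48 CPM in WT chow livers, both near the LXRα-/- chow level. Batf3, a transcription factor of cross-presenting dendritic cells, was the other, lost in 8 of the 10 fits (adjusted p up to 0.13 without LXRα-/- chow library 1). Ccr3, the eotaxin receptor, had 33 to 211 counts in the livers labelled LXRα-/- chow and 0 in each WT HFD library, so it was at least 179-fold higher against a floor of 3 counts over the WT HFD group. H2-M2, a non-classical class I gene, had 28 to 226 counts and 0 in the same groups, at least 119-fold higher. Of the 408 H2-M2 counts 226 were in LXRα-/- chow library 1. Both genes were chosen after their values were seen. In LXRα-/- HFD livers Ccr3 had 0.812 ± 0.376 CPM, against 0.00837 ± 0.0187 CPM in WT chow livers. H2-M2 had 0.366 ± 0.0969 CPM in LXRα-/- HFD livers, against 0 CPM in WT chow livers. None of 11 neutrophil, 18 T and NK cell or 9 cholangiocyte genes passed the threshold. Their list medians were 1.008, -0.348 and 0.369, with 9, 6 and 6 genes fitted higher.

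None of 21 acute phase genes was called (median log2 fold change 0.54, 16 with positive values). Saa1, serum amyloid A, had 60.2, 8.45, 26.6, 74.6 and 339 CPM in the livers labelled LXRα-/- chow, against 25.2, 37.3, 15, 10.9 and 17.4 CPM in WT HFD livers, with library 5 of the LXRα-/- chow label far above the rest (log2 fold change 2.27, adjusted p = 0.14). Among complement genes, named because they went the opposite way in the remaining libraries, C8a, a component of the membrane attack complex, rose to 328 ± 172 CPM with the LXRα-/- chow label, against 106 ± 28.6 CPM in WT HFD livers. The C8a log2 fold change was 1.63 ± 0.34 (SE), adjusted p = 0.015, and C2 (lost in 8 of the 10 fits, adjusted p up to 0.12 without LXRα-/- chow library 1) was higher too. With the mitochondrial share as a covariate neither was called (adjusted p = 0.27 for C8a and 0.58 for C2). None of 10 class II antigen genes was called. Of the 10 class I, 23 interferon-stimulated and 20 chemokine and innate sensing genes 1 each rose (2.12% of all genes did) and none fell, with list medians of -0.04, 0.27 and 0.52, and 8 of the 10 class I genes were fitted lower. The 3 were Nlrc5 (lost in 9 of the 10 fits, adjusted p up to 0.14 without LXRα-/- chow library 1), Gbp3 (lost in 8 of the 10 fits, adjusted p up to 0.18 without LXRα-/- chow library 1) and Cxcl14 (lost in 8 of the 10 fits, adjusted p up to 0.17 without LXRα-/- chow library 5). Cxcl14, a chemokine, had 51.4 CPM in LXRα-/- chow library 5 and 3.57 to 6.27 CPM in the other 4 of that group. Of 16 B and plasma cell genes, Ighg1 (lost in 6 of the 10 fits, adjusted p up to 0.1 without WT HFD library 1) rose, while 12 were fitted lower (median log2 fold change -0.72). That list summed to 138 to 452 CPM in the livers labelled LXRα-/- chow and 197 to 1620 CPM in WT HFD livers.

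Other programmes gave no more than 2 calls each, where 2.12% of all genes were called higher and 1.6% lower. All 13 clock repressor and output genes had positive fold changes (median log2 fold change 0.72) and all 6 clock activators negative ones (median -0.60), the direction in which the clock level differed. That level is itself built from the clock genes Arntl, Npas2, Dbp and Per3, so the shared direction is not a separate observation. Nr1d2, the repressor REV-ERBβ, was the only one called, at 44.2, 30.6, 35.4, 23.6 and 34.9 CPM in the livers labelled LXRα-/- chow, against 8.89, 10.6, 10.1, 10.8 and 14.4 CPM in WT HFD livers. The Nr1d2 log2 fold change was 1.62 ± 0.28 (SE), adjusted p = 0.0066, and the call was lost with the mitochondrial share as a covariate (adjusted p = 0.21). Of 22 nuclear genes of oxidative phosphorylation, all with negative fold changes (median -0.53), Cox5a (lost in 5 of the 10 fits, adjusted p up to 0.12 without WT HFD library 1) and Ndufa4 (lost in 6 of the 10 fits, adjusted p up to 0.13 without WT HFD library 1) fell. All 13 mitochondrially encoded genes had positive fold changes (median 0.47), and mt-Atp8 rose by 1.22 ± 0.26 (SE; adjusted p = 0.017), lost without LXRα-/- chow library 1 or WT HFD library 1 (adjusted p up to 0.058). Hspb1, a small heat shock protein, fell to 9.05, 18.1, 16.3, 25.9 and 29.4 CPM in the livers labelled LXRα-/- chow, against 166, 110, 73.7, 59.7 and 52.6 CPM in WT HFD livers. The Hspb1 log2 fold change was -2.23 ± 0.42 (SE), adjusted p = 0.0095, and the call was lost with the mitochondrial share as a covariate (adjusted p = 0.21). Hspb1 was the only gene called of 13 chaperone genes, all with negative fold changes. Of 21 unfolded protein response, 14 NRF2, 12 p53, 13 immediate early, 19 glucose and 19 cell cycle genes none was called. Of 19 urea cycle and amino acid genes, Got1 (lost in 8 of the 10 fits, adjusted p up to 0.1 without WT HFD library 1) and Glul (lost in 9 of the 10 fits, adjusted p up to 0.098 without LXRα-/- chow library 2) fell. Of 16 liver hormone genes Fgf21 and Angptl6 (lost in 3 of the 10 fits, adjusted p up to 0.071 without WT HFD library 1) fell, and Elovl3 was the one called of 12 male-biased genes, Slc40a1 of 11 iron genes and Slc39a4 of 6 metallothionein and zinc genes. None of 5 X inactivation and Y-linked or 5 fetal liver genes was called.

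Matrix, vessel and red cell genes were lower where they were called, and 1.6% of all genes were called lower. Of 21 stellate cell and matrix genes, Bgn (lost in 4 of the 10 fits, adjusted p up to 0.086 without WT HFD library 1) and Col1a1 (lost in 7 of the 10 fits, adjusted p up to 0.13 without WT HFD library 1) fell. Of 15 sinusoidal endothelial genes, Cdh5 (lost in 3 of the 10 fits, adjusted p up to 0.077 without WT HFD library 1) fell. The haemoglobin genes Hbb-bs (lost in 6 of the 10 fits, adjusted p up to 0.12 without WT HFD library 1) and Hbb-bt (lost in 6 of the 10 fits, adjusted p up to 0.14 without WT HFD library 1) were lower too, and the erythroid genes summed to 502 to 2560 CPM in the livers labelled LXRα-/- chow and 1730 to 4000 CPM in WT HFD livers. Some genes outside every list held their calls in all 10 leave-one-out fits and are named after seeing their values. Rhbdf2, which carries the shedding protease ADAM17 to the cell surface, had 2.58 ± 0.949 CPM with the LXRα-/- chow label, against 13.4 ± 1.42 CPM in WT HFD livers (log2 fold change -2.38). Psmf1, a proteasome regulator, had 9.06 ± 2 CPM with the LXRα-/- chow label, against 35.9 ± 13.5 CPM in WT HFD livers (log2 fold change -1.99). Rdh11, a retinal reductase, had 16.9 ± 3.29 CPM with the LXRα-/- chow label, against 47.5 ± 10.5 CPM in WT HFD livers (log2 fold change -1.49). Tnfaip8l1 had 24.5 ± 7.61 CPM with the LXRα-/- chow label, against 61.8 ± 10.5 CPM in WT HFD livers (log2 fold change -1.34). Fgfr1, a growth factor receptor, had 16.3 ± 7.97 CPM with the LXRα-/- chow label, against 4.41 ± 0.92 CPM in WT HFD livers (log2 fold change 1.88), and Amz1, a metalloprotease, 3.91 ± 1.53 CPM with the LXRα-/- chow label, against 0.894 ± 0.128 CPM in WT HFD livers (log2 fold change 2.13). Kcnj16, a potassium channel, had 0 counts in the livers labelled LXRα-/- chow and 10 to 37 in WT HFD livers, which makes it at least 48.6-fold lower if the LXRα-/- chow group is set to its floor of 3 counts in all. In the remaining groups Kcnj16 had 0 CPM in LXRα-/- HFD livers, against 0.409 ± 0.237 CPM in WT chow livers. With the mitochondrial share as a covariate Psmf1 (adjusted p = 0.043), Tnfaip8l1 (0.046), Amz1 (0.046) and Kcnj16 (0.039) kept their calls. Rhbdf2 (0.13), Rdh11 (0.13) and Fgfr1 (0.39) lost theirs.

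The remaining 10 libraries, LXRα-/- HFD and WT chow, share no library with this comparison and differ by the same genotype labels with the diets exchanged, so the sign of a gene's difference there can be read beside both labels. In that comparison 7249 genes (38.3%) were called, 3744 higher (19.8%) and 3505 lower (18.5%) with the LXRα-/- HFD label. Of the 400 genes higher with the LXRα-/- chow label, 279 (69.8%) were also called higher there, 17 (4.2%) were called lower and 104 (26.0%) were not called. Of the 303 lower genes, 192 (63.4%) were called lower, 8 (2.6%) higher and 103 (34.0%) were not called. Across all tested genes the fold changes (log2) of the 2 comparisons correlated with Pearson's r of 0.376 and Spearman's rho of 0.436, a description over genes, which are not independent. The mitochondrial share was 14.1 to 20.4% in LXRα-/- HFD livers, against 3.89 to 5.67% in WT chow livers, so in both comparisons the LXRα-/- label had the higher share, and a gene called the same way in both also goes with that share. Adding it to the fit left 16 calls in the second comparison, where the share did not overlap between the 2 groups.

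Among genes that went the same way, Cd5l and Ddb2 had log2 fold changes of -8.77 ± 0.95 (SE), adjusted p = 1.5e-06, and 3.25 ± 0.29 (SE), adjusted p = 2.4e-07, in LXRα-/- HFD over WT chow livers. Cyp2c70 differed there by -4.25 ± 0.30 (SE), adjusted p = 2.9e-08. Scarb1 differed by -1.46 ± 0.17 (SE), adjusted p = 4.2e-06, and Pmvk by -1.48 ± 0.27 (SE), adjusted p = 0.00028. Fcgr4 and Fcer1g were higher there too, with log2 fold changes of 1.42 and 0.99. Fads1, Elovl2 and Elovl5 were not called (log2 fold changes -0.59, -0.11 and 0.63), and neither were Apoa4 (-0.24) and Map3k13 (-0.23). For each of these 5 genes the LXRα-/- chow group had the lowest and the WT HFD group the highest of the 4 means.

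Of the 703 genes 25 were called the opposite way there. A test of diet within the LXRα-/- label, HFD over chow, which shares the LXRα-/- chow libraries, called 3 genes (0.0159%), and none of the 6 genes described next was among them (adjusted p of 0.725 for Fgf21, 0.482 for Slc39a4, 0.169 for Slc39a5, 0.531 for Fam81a, 0.362 for Fabp2 and 0.669 for C8a). The same test within the WT label, HFD over chow, which shares the WT HFD libraries, called 5547 genes (29.3%). Among them were Fgf21 (adjusted p = 0.000118), Slc39a5 (0.000207), Fam81a (0.000105) and Fabp2 (0.0235), and its results for Slc39a4 and C8a are not reported here. Fgf21 and Slc39a4 were also called between LXRα-/- chow and WT chow livers (adjusted p = 0.0379 and 0.0047), where 43.4% of all genes were. Fgf21 had 2.93 ± 2.5 CPM with the LXRα-/- chow label, against 16.8 ± 10.4 CPM in WT HFD livers (log2 fold change -2.52, adjusted p = 0.03), and 7.12 ± 2.82 CPM in LXRα-/- HFD livers, against 0.981 ± 0.705 CPM in WT chow livers (log2 fold change 2.86, adjusted p = 0.0012), so its means were higher on HFD with either genotype label. Fabp2 means were likewise higher on HFD, with 66.7 ± 33.3 CPM in LXRα-/- HFD livers, against 28.4 ± 17.1 CPM in WT chow livers, beside the values above. C8a means were lower on HFD, with 186 ± 86.9 CPM in LXRα-/- HFD livers, against 482 ± 142 CPM in WT chow livers (log2 fold change -1.37 ± 0.33 (SE), adjusted p = 0.0029). Slc39a4, a zinc importer, had 29.9 ± 11.9 CPM with the LXRα-/- chow label, against 11.2 ± 3.31 CPM in WT HFD livers, and 13.8 ± 5.44 CPM in LXRα-/- HFD livers, against 69.8 ± 27.7 CPM in WT chow livers, with lower means on HFD. Slc39a5, another zinc importer, named after its values were seen, had 0.627 ± 0.272 CPM with the LXRα-/- chow label, against 2.21 ± 0.804 CPM in WT HFD livers, and 2.43 ± 0.933 CPM in LXRα-/- HFD livers, against 0.479 ± 0.179 CPM in WT chow livers, with higher means on HFD. The Slc39a4 call was lost in 3 of the 10 leave-one-out fits (adjusted p up to 0.058 without WT HFD library 3). Fam81a, also chosen so, had 3.31 ± 1.47 CPM with the LXRα-/- chow label, against 0.603 ± 0.165 CPM in WT HFD livers, and 1.39 ± 0.506 CPM in LXRα-/- HFD livers, against 3.49 ± 1.68 CPM in WT chow livers, with lower means on HFD.

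**Figure D5:**
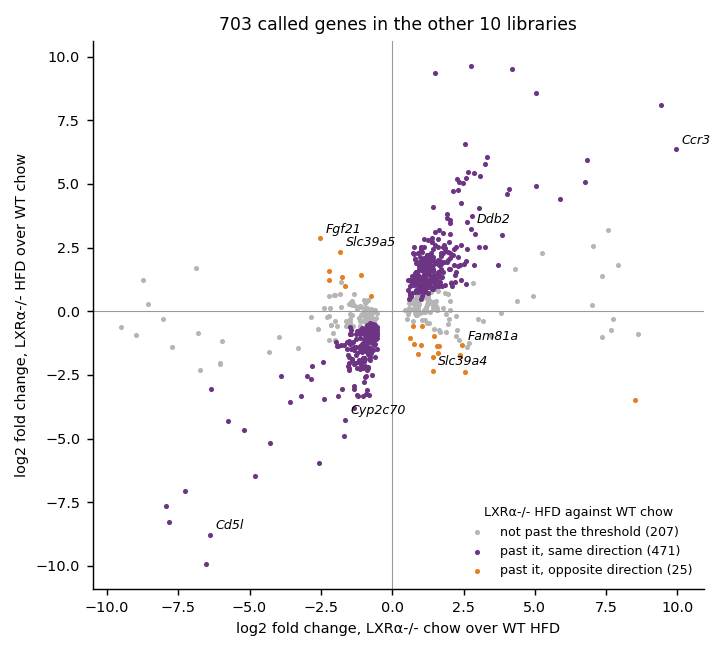
Log2 fold change of the 703 called genes in LXRα-/- chow over WT HFD (x axis) and in LXRα-/- HFD over WT chow (y axis); purple points passed the threshold in both in the same direction (471), orange points in opposite directions (25) and grey points in the first only (207). Cd5l and Ddb2 lie far out in the corners of the same direction, and Fgf21, Slc39a5, Slc39a4 and Fam81a lie in the corners of opposite direction.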

How the data were processed

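Whole-liver polyA RNA of 20 mouse liver libraries (5 in each of 4 groups by genotype label and diet) was sequenced in pairs on a NovaSeq 6000, per the labels' protocols. Named in the submitters' processing notes, without their roles, are HISAT2 2.0, StringTie 1.3.0, Bowtie 0.12.2 and the genome build mm8. How reads were counted, with which strand setting and with what treatment of reads that match several places, is not given in the sources used here. The authors deposited 1 table with gene counts and FPKM per library, in which a count of 0 is listed as FPKM 0.0001, and its coordinates match GRCm38 (99.6% of gene starts). Reads shared by near-identical or overlapping genes may be split, which makes those counts uncertain.

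Counts were filtered with filterByExpr, scaled by TMM and fitted with edgeR 4.0.16 quasi-likelihood (R 4.3.3), all 20 libraries with 1 mean per group, two-sided, Benjamini-Hochberg over the 18905 genes tested, threshold 0.05; the script was checked on simulated counts. LXRα-/- HFD and WT chow libraries were compared in the same fit. Single values of the libraries were tested by exact permutation over 252 arrangements (scipy 1.17.1). FPKM was used for Nr1h3, and CPM means TMM-scaled counts elsewhere. Alternatives used DESeq2 1.42.0, limma 3.58.1 on log2(FPKM + 1) or log2(FPKM + 0.1), quality weights, other filters, scalings and covariates, and each library left out. The 46 gene lists (682 genes, 659 tested), the members and the rule for named genes (14 core genes, the 10 largest rises and falls with mean FPKM of at least 2 and groups that did not overlap, the 6 smallest p, the 3 smallest p of each list, and the genes with the clearest difference in the remaining libraries) were chosen with earlier results of these data known. The 10 libraries held 81413135 to 108889938 counts each; lower bounds on folds use a floor of 3 counts per group and cover counting error only. The values of some genes in the lists are not reported here.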

Additional observations from a re-analysis of the deposited data

Results flagged for a closer look

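In 13 of 236 groups of 5 libraries 1 value stood apart from the other 4 by Dixon's test at its 95% level, where chance flags about 1 in 20. Nr1h3 had 23.4 CPM in LXRα-/- chow library 4, the lowest of that group, and the same library had the highest Apoa4 of the group at 318.0 CPM. Library 1 of that label stood high for 9030622O22Rik at 64.0 CPM, for mt-Atp8 at 3220.0 CPM and for the pseudogene share at 14.11%. Acp2 stood apart at 84.5 CPM and the clock level at -1.3783 in LXRα-/- chow library 2. Cxcl14 stood high at 51.4 CPM in LXRα-/- chow library 5, and Psmf1 low at 5.65 CPM in LXRα-/- chow library 3. In WT HFD livers Nr1h4 stood low at 62.3 CPM in library 1, Adamdec1 at 0.329 CPM and Rhbdf2 at 10.9 CPM in library 3, and Tmem248 stood apart at 9.76 CPM in library 5.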

How the results depend on the processing

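The 703 genes called (400 higher and 303 lower) became 378 (205 and 173) with no filter, 404 (253 and 151) with library totals, which moved the median log2 fold change to 0.095, 314 (214 and 100) with only the 10 libraries in the fit, 1856 (1015 and 841) with DESeq2, and 968 (635 higher) with limma on log2(FPKM + 1). With the mitochondrial share as a covariate they were 31 (20 and 11), and 16 (4 and 12) in LXRα-/- HFD over WT chow. Leaving out each library gave 163 to 1402 genes, 99 to 733 higher and 64 to 669 lower. Alternatives chosen after seeing the data gave 61 (35 and 26) without LXRα-/- chow libraries 1 and 5, 95 (55 and 40) without LXRα-/- chow library 2 and WT HFD library 5, and 23 (15 and 8) among the 6 libraries closest in mitochondrial share; 18 of the 23 were among the 703. A clock-level covariate gave 730 calls, which share 429 genes with the 703.

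The replicate block gave 2.5e+02 genes (158 higher and 94 lower). LXRα-/- chow and WT HFD libraries with the same number did not deviate together, with correlations of -0.079 to 0.024 over genes. These values alone cannot settle whether the numbers pair libraries in some other way.

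The Nr1h3 FPKM difference was 24.19 to 38.74 and the mitochondrial share difference 5.015 to 7.979 percentage points when each library was left out. Nr1h2, never called, turned to log2 fold changes of -0.35 with the mitochondrial covariate, -0.23 without LXRα-/- chow libraries 1 and 5, and -0.44 among the libraries closest in that share; the cause was not tested. Called under all 26 alternatives were 10 genes: Ddb2, Map3k13, Psmf1, Cd5l, Adamdec1, Ccr3, Slc17a3, Cyp3a59, Tmem254c and 9030622O22Rik. Of 99 called genes that the naming rule or later choice picked, 50 held in every leave-one-out fit. Genes with few counts, such as Ccr3 and Kcnj16, rest on bounds.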
